A study of Mus musculus with 3 samples.

Results

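The genes described here are 35 genes of cholesterol and fatty acid handling, chosen by name from the 33696 genes of the mouse spleen single-cell matrices. All 35 were found. They fall into 4 groups: 16 enzymes that build sterols, 6 genes that sense or move sterols, 5 genes of the liver X receptors (LXR) and their targets, and 8 lipogenic enzymes that make and desaturate fatty acids.

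The samples were 3 spleen libraries, 1 per group, made with 10x Genomics 5′ chemistry: MASH-Phe-free (called Phe-free), MASH and Chow. MASH is the label for metabolic dysfunction-associated steatohepatitis, Phe-free for the phenylalanine-free treatment of MASH and Chow names the remaining group. The series' design text describes a high-fat and then methionine- and choline-deficient diet in C3H mice that also received subcutaneous HCA-1 liver cancer cells, and it concerns tumours taken for bulk sequencing. Strain, age, diet, number of animals and tumour status of the mice behind these 3 spleens are not given in the sources used here, so whether a library is 1 animal or a pool is unknown.

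Cells make cholesterol from acetyl-CoA through the mevalonate pathway, and the transcription factor SREBP-2 switches on nearly all enzymes of that pathway when membrane sterol is low. SCAP escorts SREBP-2 out of the endoplasmic reticulum and INSIG proteins hold it back when sterol is plentiful. LXR works at the other end: oxysterols activate it, and its targets export cholesterol, limit lipoprotein uptake and, through SREBP-1, promote fatty acid synthesis. In the spleen, red pulp macrophages take up the membranes of senescent red cells, and lymphocytes that divide need new membrane lipid.

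The promoters of 3 sterol enzymes and 1 LXR target are shown because their genes carry the comparisons that follow: Hmgcs1 (HMG-CoA synthase), Idi1 (isopentenyl diphosphate isomerase) and Cyp51 (lanosterol demethylase) as sterol enzymes, and Abca1 (the cholesterol efflux pump). Each is the 250 bases before the RefSeq gene start, read 5′ to 3′ on the gene's strand from GRCm38.p6: Hmgcs1 at chr13:119690101-119690350 (plus strand), Idi1 at chr13:8885356-8885605 (plus strand), Cyp51 at chr5:4104698-4104947 (minus strand) and Abca1 at chr4:53159896-53160145 (minus strand). Capitals mark matches on either strand to CCAAT (the box bound by NF-Y, a partner of SREBP at sterol promoters), to the sterol element TCACNCCAC or to the direct repeat bound by LXR.
Hmgcs1: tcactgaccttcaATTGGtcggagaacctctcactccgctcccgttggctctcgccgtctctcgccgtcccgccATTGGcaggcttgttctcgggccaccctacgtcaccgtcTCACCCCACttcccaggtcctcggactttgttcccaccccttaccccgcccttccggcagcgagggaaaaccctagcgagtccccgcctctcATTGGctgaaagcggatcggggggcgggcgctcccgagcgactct
Idi1: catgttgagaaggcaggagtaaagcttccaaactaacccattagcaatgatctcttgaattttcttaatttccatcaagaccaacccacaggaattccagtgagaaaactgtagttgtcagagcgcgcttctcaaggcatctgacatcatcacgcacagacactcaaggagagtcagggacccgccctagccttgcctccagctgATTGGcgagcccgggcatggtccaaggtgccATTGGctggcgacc
Cyp51: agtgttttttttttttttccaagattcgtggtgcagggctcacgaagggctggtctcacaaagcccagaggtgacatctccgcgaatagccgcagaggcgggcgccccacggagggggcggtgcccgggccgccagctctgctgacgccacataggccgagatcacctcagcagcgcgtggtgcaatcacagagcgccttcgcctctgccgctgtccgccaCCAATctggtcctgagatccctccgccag
Abca1: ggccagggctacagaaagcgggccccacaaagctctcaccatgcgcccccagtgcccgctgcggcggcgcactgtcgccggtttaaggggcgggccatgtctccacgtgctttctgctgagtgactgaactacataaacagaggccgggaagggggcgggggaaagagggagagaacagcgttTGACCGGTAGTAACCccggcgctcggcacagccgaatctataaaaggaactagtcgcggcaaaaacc

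The RefSeq promoter table held 26 of the 35 genes. CCAAT stood in 12 of the 13 sterol enzyme promoters with an entry (92.3%), against 10133 of 27025 promoters in the table (37.5%). It stood in 3 of 4 sensing genes, 1 of 4 LXR genes and 1 of 5 lipogenic genes. Hmgcs1 carried it 3 times, as ATTGG, starting 237, 176 and 45 bases before the gene start. TCACNCCAC was found in 1 of the 13 sterol enzymes, Hmgcs1, starting 137 bases before the start, and in 331 of 27025 promoters (1.22%). The LXR repeat was in 4 of 27025 promoters (0.0148%), namely Abca1, Srebf1, Fasn and Prrg4. In Abca1 it read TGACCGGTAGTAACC on the gene's strand, starting 67 bases before the gene start; the search fixed the first 6 and last 5 of these letters, or their reverse complement, and left the 4 between free. Those letters follow elements known from LXR target promoters, so the matches in Abca1, Srebf1 and Fasn were not an independent find. The Fasn match had the same letters as that of Abca1 and started 225 bases before its start. Srebf1 had TGACCGCCAGTAACC starting 182 bases before its start. No match overlapped another in the promoters shown.

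The Phe-free, MASH and Chow libraries held 16778, 19219 and 16495 barcodes with median depths of 6263, 5873 and 7169 unique molecular identifiers (UMIs). After filters, 15560, 17334 and 15669 cells were clustered together and named from marker genes. Classes are called "-like" because the names were rebuilt from markers, and 5.82%, 8.96% and 8.63% of cells stayed unnamed. Of the cells named under 2 random starts of the clustering, 88.52% had the same class in both. Libraries shared 102 (Phe-free and MASH), 77 (Phe-free and Chow) and 72 (MASH and Chow) cell barcodes, and no barcode was in all 3. Transcripts of pancreatic digestive enzymes were found in all 3 libraries. They were highest in Chow in 24 of 28 classes; in CD4 T-like, CD8 T-like and nonclassical monocyte-like cells Phe-free was highest, with 35.9 of every 1e6 UMIs in CD8 T-like cells against 1.92 in MASH and 16.1 in Chow, and in immature neutrophil-like cells MASH was highest. Clusters led by these genes were left out. Free RNA, estimated from markers of other cell types, exceeded 4% of UMIs in 5 class-library pairs, with late erythroid-like cells highest at 8.62% (Phe-free) and 6.4% (MASH). A level below is a gene's UMI total in a class and library divided by all UMIs there, written as CPM (counts per 1e6 UMIs), and intervals are exact Poisson 95% intervals, which cover counting error only.

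The 16 sterol enzymes were highest in plasmacytoid dendritic-like cells, which make type I interferon, and next in germinal centre B-like cells, which divide quickly. Their summed level in the plasmacytoid class was 916 CPM (838 to 998) in Phe-free, 622 (546 to 706) in MASH and 1020 (926 to 1120) in Chow, from 47, 27 and 32 cells. Germinal centre B-like cells had 667 CPM (632 to 704) in Phe-free, 582 (549 to 616) in MASH and 446 (412 to 483) in Chow. In MASH the intervals of the plasmacytoid and germinal centre classes overlapped, and in the other libraries they did not. Cycling T-like cells came next in every library, with 417, 523 and 397 CPM in Phe-free, MASH and Chow. Both the germinal centre and the cycling T class were rich in cell cycle transcripts, at 2730, 3166 and 2475 CPM over the cell cycle list in the germinal centre class and 4699, 4780 and 4893 CPM in the cycling T class; the part of these in the sterol levels was not tested.

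At the low end stood mature neutrophil-like cells with 95.2, 89.1 and 112 CPM of summed sterol enzymes in Phe-free, MASH and Chow, and plasma-like cells with 106, 99.2 and 107 CPM. The plasma value depends on what the total holds, since immunoglobulin, haemoglobin, mitochondrial and ribosomal genes made up 69.7%, 70.9% and 68.8% of plasma-like UMIs. Without those genes in the total the plasma class had 351, 340 and 345 CPM, and its rank among 27 classes moved to 11, 11 and 10 from 26, 25 and 27. Plasmacytoid cells kept rank 1 in Phe-free and Chow on that scale and had rank 2 in MASH.

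**Figure D1:**
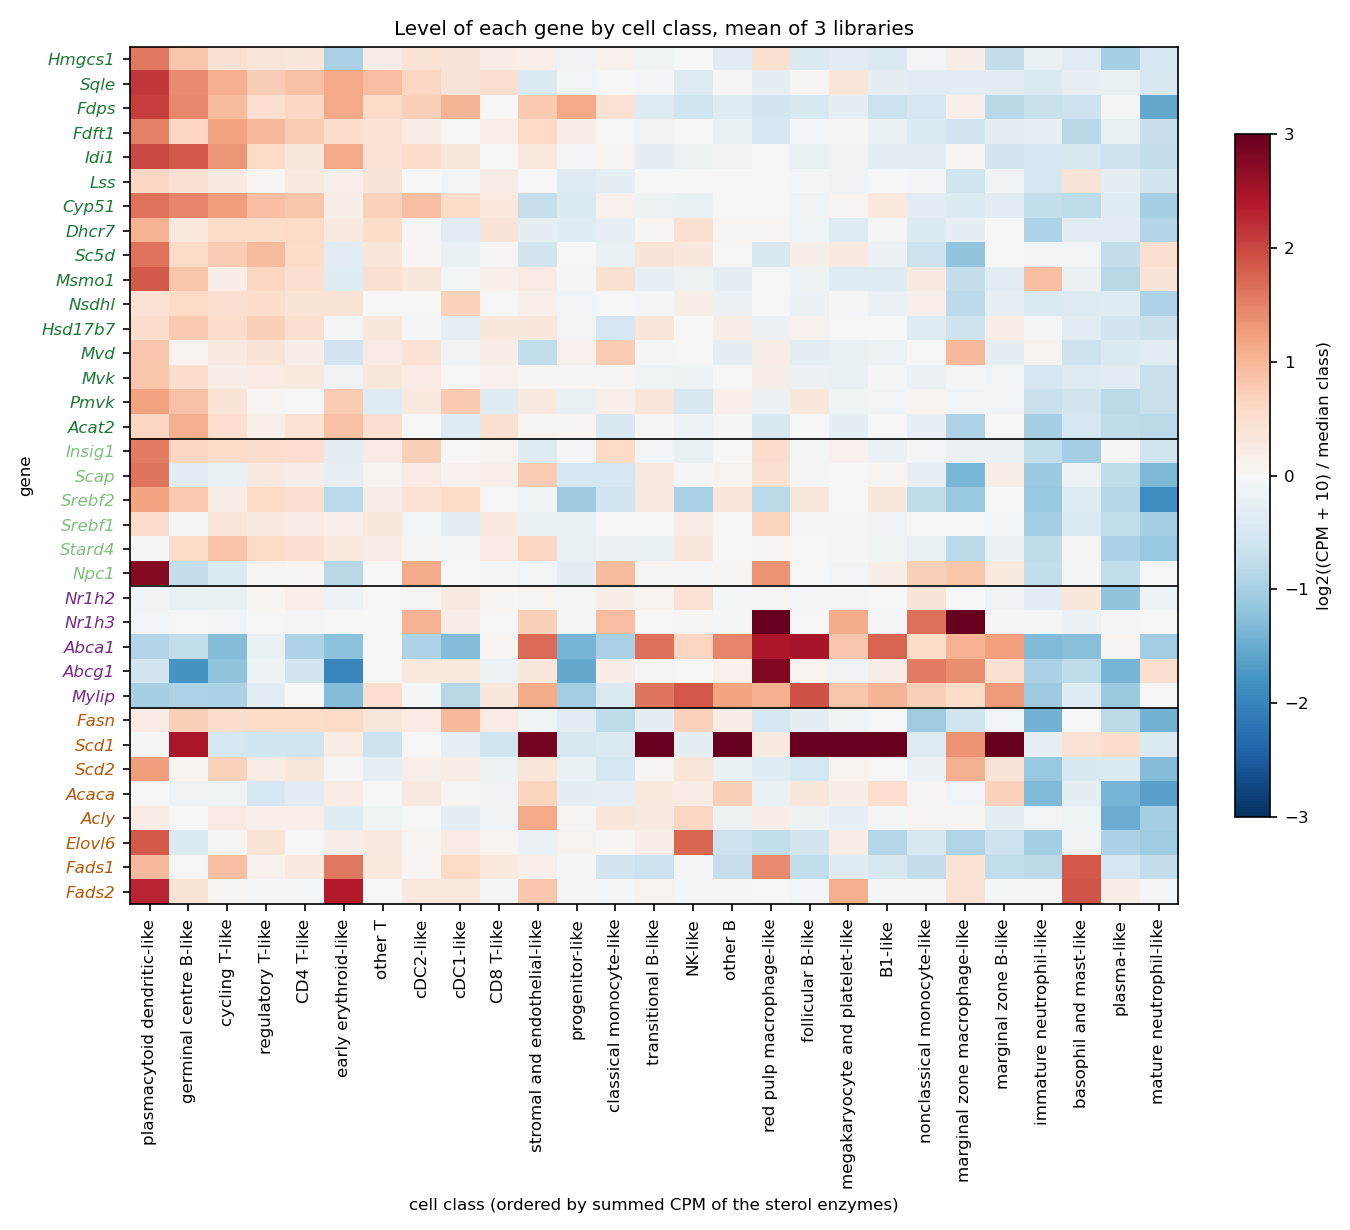
Each row is 1 of the 35 genes, coloured by group, and each column 1 of 27 cell classes ordered by the summed sterol enzyme level; the colour is the log2 ratio of the gene's level (mean of the 3 libraries plus 10 CPM) to its level in the median class, on a scale of -3 to 3. The sterol enzyme rows share their high columns at the plasmacytoid and germinal centre end, while Nr1h3, Abca1, Abcg1 and Scd1 have high columns elsewhere.

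**Figure D2:**
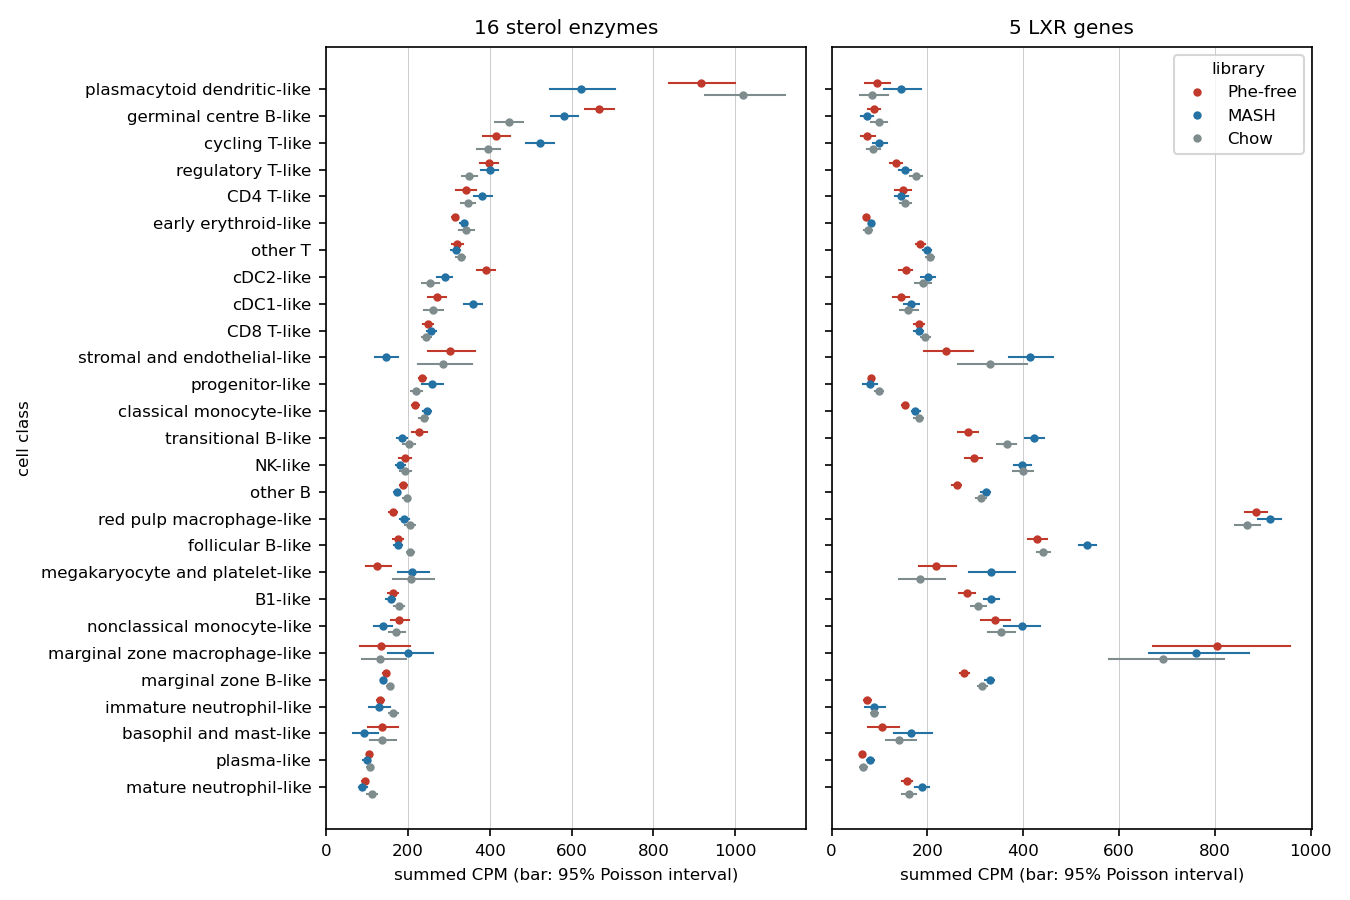
Summed CPM of the 16 sterol enzymes and of the 5 LXR genes in each class, 1 point per library (Phe-free, MASH, Chow) with its exact Poisson 95% interval. Plasmacytoid dendritic-like cells lead the sterol enzymes at 622 to 1020 CPM, and red pulp macrophage-like cells lead the LXR genes at 868 to 914 CPM.

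Among single sterol enzymes, Sqle, the squalene epoxidase that catalyses a rate-limiting step, was the most unequal over classes. Its plasmacytoid level was 78.1 CPM in Phe-free (44 UMIs), 33.4 in MASH (13 UMIs) and 49.7 in Chow (21 UMIs); the mean of the 3 was 11.4 times that of the median class. Idi1, which makes the allylic isoprene unit, had 90.5, 54.0 and 78.1 CPM in the plasmacytoid class and 63.2, 85.2 and 49.8 CPM in germinal centre B-like cells of the Phe-free, MASH and Chow libraries. By these values the germinal centre class was above the plasmacytoid class for Idi1 in MASH, and below it in the other libraries. The plasmacytoid values came from only 47, 27 and 32 cells in Phe-free, MASH and Chow, so their counting error is wide. Whether the order of these classes for Idi1 differs between libraries beyond that error was not tested.

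Fdps, the farnesyl diphosphate synthase at the branch to prenylated proteins, had 186, 121 and 163 CPM in plasmacytoid cells, a mean 5.28 times the median class. Msmo1, a methyl sterol oxidase, had 78.1, 77.2 and 94.6 CPM there, 5.19 times the median class. By the mean of the 3 libraries, exceptions to the plasmacytoid lead were Acat2 and Hsd17b7, highest in germinal centre B-like cells (37.1 and 20.7 CPM). The others were Nsdhl, highest in cDC1-like cells (24.7 CPM), and Mvd, highest in marginal zone macrophage-like cells (24.2 CPM). That macrophage class held only 156645, 278504 and 195220 UMIs of all genes in Phe-free, MASH and Chow. Its Mvd level thus rests on few UMIs, and plasmacytoid cells were close behind (20.6 CPM). The named class led in all 3 libraries for Acat2, in 2 for Mvd and in 1 each for Hsd17b7 and Nsdhl. Across the 35 genes of all groups, plasmacytoid cells were the highest class for 18.

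The sterol enzymes ran together over classes. Over 27 classes the median Spearman rho between 2 sterol enzymes was 0.59, and it was above 0 for 120 of 120 pairs. These are descriptions without a test, since all genes of a class share its cells, libraries and depth. Against the sum of the other sterol enzymes, Idi1 and Fdft1 (squalene synthase) each had a rho of 0.91 and Mvd (mevalonate diphosphate decarboxylase) the lowest, 0.44. Fasn and Elovl6, which build and lengthen saturated fatty acids, followed the sterol enzymes with rho of 0.74 and 0.68, and Scd1, a stearoyl-CoA desaturase, ran against them with -0.40. Sterol enzymes and LXR genes had a median rho of -0.12, above 0 for 22 of 80 pairs.

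Of the sensing and movement genes, Npc1, which releases cholesterol from lysosomes, had 158, 144 and 166 CPM in plasmacytoid cells of the Phe-free, MASH and Chow libraries. That mean was 10.8 times the median class, with red pulp macrophage-like cells next (52.7 CPM) and cDC2-like cells after them (42.8 CPM). Yet its rho with the summed sterol enzymes over 27 classes was 0.01. Insig1, the brake on SREBP processing and itself a SREBP target, had 53.2, 36.0 and 56.8 CPM in plasmacytoid cells, 4.70 times the median class.

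Scap, the SREBP escort, had 67.4, 95.2 and 97.0 CPM in plasmacytoid cells (3.96 times the median class), and Srebf2, which encodes SREBP-2, had 149, 129 and 144 CPM there (2.52 times). Srebf1, the gene of SREBP-1, was instead highest in red pulp macrophage-like cells, at a mean of 42.1 CPM. Stard4, a carrier of sterol between membranes, had its highest mean in cycling T-like cells (31.9 CPM), which led in 1 of the 3 libraries.

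The LXR group was highest in macrophages. In red pulp macrophage-like cells the 5 genes summed to 885 CPM (863 to 909) in Phe-free, 914 (890 to 939) in MASH and 868 (842 to 894) in Chow. In marginal zone macrophage-like cells they summed to 804, 761 and 692 CPM. Nr1h3, the gene of LXR alpha, had 492, 467 and 364 CPM in marginal zone macrophage-like cells and 205, 267 and 201 CPM in red pulp macrophage-like cells, against a median class of 1.22 CPM, so its highest class stood at 362 times the median class, the largest such ratio of the 35 genes. Nr1h2, the gene of the widely expressed LXR beta, was far more even: its mean was highest in NK-like cells (88.1 CPM), 1.40 times the median class, and lowest in plasma-like cells (22.1 CPM).

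The target genes split between macrophages and B cells. Abcg1, a cholesterol efflux pump that loads high-density lipoprotein, had 340, 355 and 322 CPM in red pulp macrophage-like cells of the Phe-free, MASH and Chow libraries, 8.35 times the median class. Abca1 had 124, 189 and 154 CPM in follicular B-like cells and 163, 127 and 163 CPM in red pulp macrophage-like cells, so the class that led differed between libraries: the macrophages in Phe-free and Chow, the B cells in MASH. Mylip, a ubiquitin ligase that limits lipoprotein uptake, had 198, 233 and 187 CPM in follicular B-like cells and 154, 227 and 208 CPM in NK-like cells.

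The lipogenic genes did not share 1 pattern, with a median rho of 0.20 between 2 of them over 27 classes, above 0 for 21 of 28 pairs. Scd1 was a B cell gene in these libraries: it had 183, 224 and 247 CPM in other B cells (B cells with no named subset) and 166, 206 and 235 CPM in follicular B-like cells of Phe-free, MASH and Chow. Germinal centre B-like cells had 80.3, 76.1 and 76.1 CPM and plasma-like cells 11.7, 12.3 and 15.7 CPM. CD4 T-like cells had 0, 2 and 4 Scd1 UMIs.

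Fads2, the delta-6 desaturase that opens the route to long polyunsaturated fatty acids, came next to Nr1h3 in how unequal it was over classes, its highest class at 89.3 times the median class. The median class had only 0.498 CPM, so the size of this ratio is uncertain. Early erythroid-like cells had 44.5, 40.1 and 48.7 CPM and plasmacytoid cells 35.5, 33.4 and 54.4 CPM. NK-like cells had 0 Fads2 UMIs in each library, which allows up to 0.837, 0.589 and 0.780 CPM (3 UMIs per library) in Phe-free, MASH and Chow. Fads1, the delta-5 desaturase of the same route, was highest in basophil- and mast-like cells (51.0, 65.4 and 40.5 CPM) from 34, 40 and 47 cells, with early erythroid-like cells next at a mean of 41.9 CPM.

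Elovl6 had 71.0, 74.6 and 71.0 CPM in plasmacytoid cells and 65.6, 67.0 and 62.9 CPM in NK-like cells of the Phe-free, MASH and Chow libraries. The values of each class lay close together over the libraries. Those of the plasmacytoid class came from only 47, 27 and 32 cells, so their counting error is wide. Fasn, the fatty acid synthase, was highest in cDC1-like cells (44.0, 43.4 and 46.6 CPM). Acly, which makes cytosolic acetyl-CoA from citrate, was highest in stromal- and endothelial-like cells (mean 140 CPM), and Scd2, a further stearoyl-CoA desaturase, in plasmacytoid cells (52.2 CPM). Acaca, the acetyl-CoA carboxylase, had near-equal means in other B (50.7 CPM), marginal zone B-like (50.3) and stromal- and endothelial-like cells (49.4). Other B cells led for Acaca in 0 of the 3 libraries.

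Phe-free was compared with MASH in the 22 classes with at least 50 cells in both libraries. With 1 library per group no test between conditions was possible. A gene was called higher or lower in a class only where its CPM ratio passed 1.5-fold and both libraries together held at least 100 of its UMIs; ratios have exact conditional Poisson 95% intervals. Of 445 gene-class pairs of the 35 genes with enough UMIs, 10 were higher (2.25%) and 27 lower (6.07%), against 2.32% higher and 2.32% lower over 157957 pairs of all genes.

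LXR genes made up 10 of the 27 lower pairs, with none higher, out of 71 pairs measured (14.1% lower). Their median log2 ratio was below 0 in 16 of the 17 classes where at least 3 of the 5 could be measured, with a median over classes of -0.22; it was lowest in transitional B-like cells (-0.49) and highest in CD4 T-like cells (0.06). The median of all genes over these classes was -0.01. The 7 other genes of the LXR list (Lpcat3, Apoe, Pltp, Lpl, Abcg5, Rxra and Rxrb) had 5 of 67 pairs higher and 1 lower, and their median over 15 classes was 0.07.

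**Figure D3:**
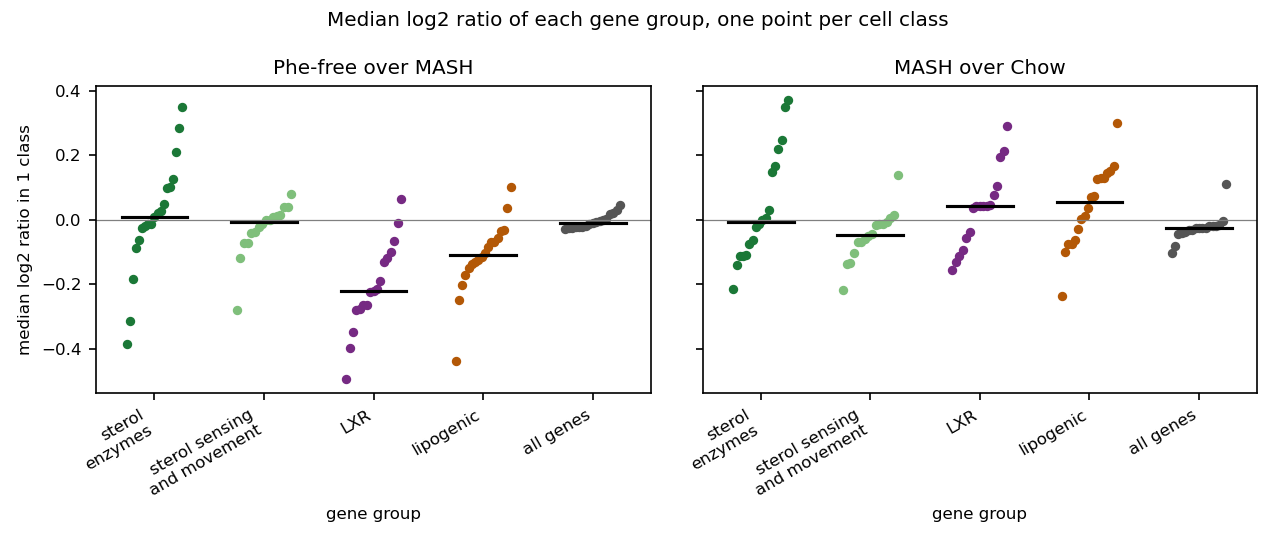
Median log2 ratio of each gene group, 1 point per class and a bar at the median over classes, for Phe-free over MASH (left) and MASH over Chow (right). For Phe-free over MASH the LXR points lie from -0.49 to 0.06 with 16 of 17 below 0, and the sterol enzyme points spread about 0.01.

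Abca1 was lower in Phe-free than in MASH, past 1.5-fold, in 6 of the 12 classes that could be measured (4 B classes, NK-like and regulatory T-like cells), and its ratio was below 1 in 10 of 12. NK-like cells had 16.7 CPM in Phe-free (60 UMIs), 40.1 in MASH (204) and 54.6 in Chow (210), a Phe-free over MASH ratio of 0.418 (0.308 to 0.560). Transitional B-like cells had 53.9 CPM in Phe-free, 104 in MASH and 92.3 in Chow, with a ratio of 0.518 (0.425 to 0.628). In both classes Phe-free was the lowest of the 3 libraries.

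Regulatory T-like cells had 10, 18.4 and 19.9 CPM of Abca1 in Phe-free, MASH and Chow, with a Phe-free over MASH ratio of 0.545 (0.350 to 0.833) from 34 and 69 UMIs. For other B cells the levels were 53.0, 84.0 and 79.7 CPM and the ratio 0.631 (0.568 to 0.700), and for marginal zone B-like cells 45.1, 69.2 and 67.0 CPM and 0.653 (0.584 to 0.729). Follicular B-like cells had 124, 189 and 154 CPM and a ratio of 0.658 (0.596 to 0.726) from 572 and 1375 UMIs. Red pulp macrophage-like cells went the other way without passing 1.5-fold, with 163 CPM in Phe-free, 127 in MASH and 163 in Chow and a ratio of 1.28 (1.17 to 1.41).

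The share of all genes lower past 1.5-fold was 1.51% in NK-like, 2.02% in transitional B-like, 1.46% in regulatory T-like, 1.76% in other B, 1.01% in marginal zone B-like and 1.56% in follicular B-like cells. Over all genes measured in at least 12 classes, 26 of 7398 (0.351%) were lower in at least 6 of them, Abca1 among these. For Phe-free over Chow, a comparison that shares the Phe-free library, Abca1 was lower in 6 of 13 classes (0.883% of 7363 genes were lower in as many), and its MASH over Chow ratio passed 1.5-fold in none of 12. When cells were gated one by one on marker genes in place of clusters, Abca1 was lower in 2 of 8 measured classes, with 7 of 8 ratios below 1; other B cells then had a ratio of 0.830 and marginal zone B-like cells 0.747. Over the 15 alternatives run, the NK ratio lay between 0.404 and 0.481 and the transitional B ratio between 0.504 and 0.582. The follicular B ratio reached 0.670, just inside 1.5-fold. Other UMI minima and another offset, which are among the 15, cannot change the ratio of a single gene.

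**Figure D4:**
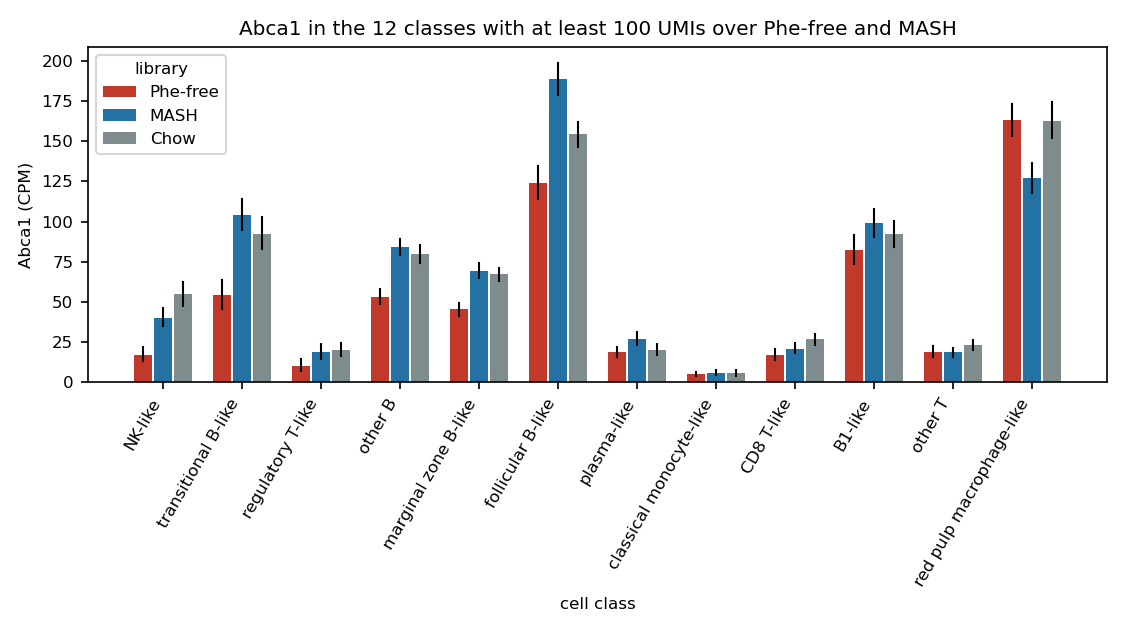
Abca1 level in CPM for Phe-free, MASH and Chow in the 12 classes with at least 100 Abca1 UMIs over Phe-free and MASH; error bars are exact Poisson 95% intervals. Phe-free bars are below MASH bars in 10 of the 12 classes, and above in red pulp macrophage-like cells (163 against 127 CPM).

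Mylip was below 1 in 18 of 19 measured classes for Phe-free over MASH and passed 1.5-fold in 2. For such counts of ratios below 1, as for Abca1 above and Abcg1 and Scd2 below, the share over all genes was not computed. All classes also share the same libraries, so these counts are descriptions. Transitional B-like cells had 128 CPM of Mylip in Phe-free, 199 in MASH and 168 in Chow, a ratio of 0.642 (0.564 to 0.730). In cDC1-like cells it had 17.5, 31.8 and 17.1 CPM from 37, 91 and 32 UMIs, with ratios of 0.550 (0.365 to 0.815) for Phe-free over MASH and 1.86 (1.23 to 2.87) for MASH over Chow, so MASH stood above both other libraries. With the clustering restarted these ratios were 0.675 and 1.18. NK-like cells had 154, 227 and 208 CPM, short of 1.5-fold.

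Abcg1 was below 1 in 16 of 17 classes and passed 1.5-fold in cDC2-like cells, with 36.3 CPM in Phe-free, 65.9 in MASH and 52.8 in Chow and a ratio of 0.550 (0.438 to 0.688). Red pulp macrophage-like cells, which have the most Abcg1, had nearly level values of 340, 355 and 322 CPM. Nr1h3 was lower in classical monocyte-like cells, with 7.89, 15.7 and 10.4 CPM and a ratio of 0.503 (0.388 to 0.651). Nr1h2 passed 1.5-fold in none of 20 classes and was below 1 in 7 of them.

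Lipogenic genes had 8 of 93 pairs lower (8.60%) and 3 higher for Phe-free over MASH. The desaturase Scd2 accounted for 5 of the 8. Transitional B-like cells had 9.38 CPM of Scd2 in Phe-free, 23.8 in MASH and 19.4 in Chow (24, 105 and 71 UMIs), with a ratio of 0.394 (0.242 to 0.618), and in other B cells the ratio was 0.574 (0.439 to 0.744) from 85 and 195 UMIs. Scd2 was below 1 in 15 of 16 classes; red pulp macrophage-like cells were the exception, with 11.2 CPM in Phe-free, 6.98 in MASH and 12.7 in Chow and a ratio of 1.61 (1.08 to 2.42).

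Scd1 was higher past 1.5-fold in red pulp macrophage-like cells only, of the classes measured: 10.5, 6.64 and 11.4 CPM in Phe-free, MASH and Chow, a ratio of 1.58 (1.05 to 2.40) from 68 and 39 UMIs, where 4.13% of all genes were higher. Scd1 in these macrophages is far below its B cell level, and free RNA in this class was 3.63% of UMIs in Phe-free and 3.01% in MASH. Over the whole library Scd1 was lower in Phe-free (45.9 CPM) than in MASH (74.0 CPM), the opposite order to these macrophages. The macrophage ratio lay between 1.22 and 2.24 over 15 alternatives, subtraction of free RNA among them. In the B cells that hold most Scd1 the ratios did not pass 1.5-fold, at 0.808 in follicular B-like cells and 0.820 in other B cells. Elovl6 moved in opposite directions in 2 B classes, with 5.60 CPM in Phe-free, 3.54 in MASH and 5.43 in Chow in marginal zone B-like cells (ratio 1.58) and 3.57, 5.87 and 4.79 CPM in other B cells (ratio 0.607); under cell-by-cell gates the marginal zone B ratio turned to 0.757.

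**Figure D5:**
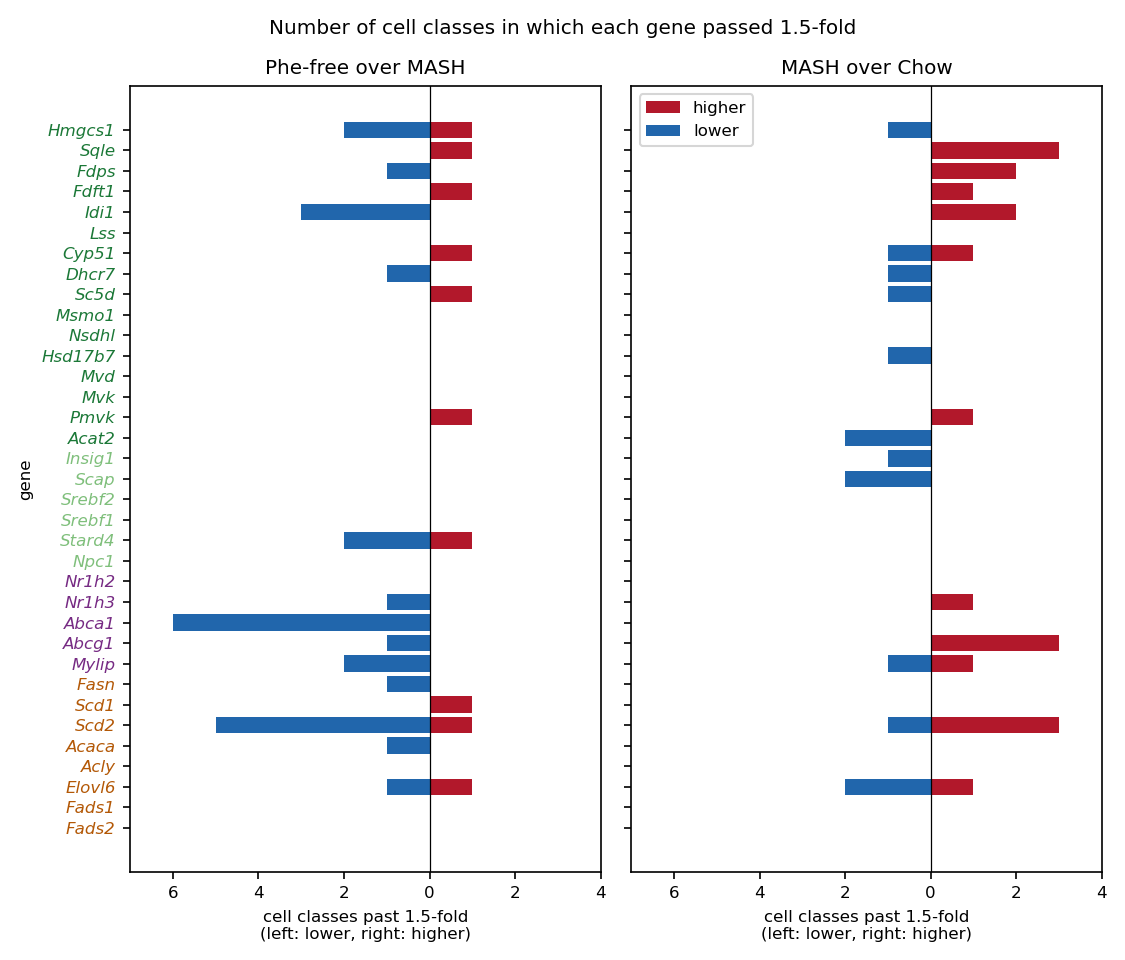
For each of the 35 genes, the number of classes in which it was lower (bars to the left) or higher (bars to the right) past 1.5-fold, for Phe-free over MASH (left panel) and MASH over Chow (right panel). Abca1 with 6 classes and Scd2 with 5 have the longest lower bars for Phe-free over MASH.

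The sterol enzymes had no common direction between Phe-free and MASH, with 6 pairs higher and 7 lower of 191 and a median of 0.01 over 19 classes. Single classes had one: germinal centre B-like cells had 9 of 11 measured enzymes above 0 (median 0.35) and cDC2-like cells 9 of 10 (median 0.28), while cycling T-like cells had 7 of 7 below 0 (median -0.31) and cDC1-like cells 5 of 6 (median -0.38).

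In germinal centre B-like cells Hmgcs1, the enzyme at the entry of the mevalonate pathway, had 69.5 CPM in Phe-free (142 UMIs), 43.1 in MASH (86) and 32.0 in Chow (45). The Phe-free over MASH ratio was 1.61 (1.23 to 2.14), in a class where 2.55% of all genes were higher. Fdft1 had 36.2, 24 and 16.4 CPM and a ratio of 1.51 (1.03 to 2.21), and Fdps 128, 95.2 and 71.9 CPM, short of 1.5-fold. Idi1 did not follow that order, with 63.2, 85.2 and 49.8 CPM. Acaca was lower there, with 18.6 CPM in Phe-free, 31.1 in MASH and 24.9 in Chow and a ratio of 0.599. The 166, 185 and 137 cells of this class came in clusters of unequal depth: a cluster at 3.21 times the median depth of its libraries held 58, 38 and 27 of them. With its clusters weighted alike, the Hmgcs1 ratio was 1.57 and that of Fdft1 1.47; over all alternatives the Hmgcs1 ratio lay between 1.39 and 1.86 and that of Fdft1 between 1.15 and 2.03.

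The cDC2-like class differed in depth between libraries, with median UMIs of 5449.5 in Phe-free, 2049.5 in MASH and 2263 in Chow, and a shallow cluster held 200 of 396, 455 of 640 and 288 of 410 cells. Sqle had 21.0 CPM there in Phe-free (70 UMIs), 8.87 in MASH (32) and 8.39 in Chow (21), a ratio of 2.37 (1.54 to 3.72); with clusters weighted alike it was 1.62. Pmvk, phosphomevalonate kinase, had 33.3, 18.3 and 25.2 CPM and a ratio of 1.82 (1.33 to 2.51), which was 1.64 with clusters weighted alike and 1.05 under cell-by-cell gates. The share of all genes higher past 1.5-fold in this class was 3.85%.

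In cDC1-like cells Hmgcs1 had 20.3, 40.9 and 35.9 CPM in Phe-free, MASH and Chow, a Phe-free over MASH ratio of 0.497 (0.342 to 0.711), and Idi1 had 13.3, 26.6 and 11.8 CPM, a ratio of 0.499 (0.311 to 0.778). With each cell given the same weight these ratios were 0.751 and 0.848. The cell cycle list was at 316 CPM in Phe-free, 491 in MASH and 189 in Chow in this class. Like both genes it was lower in Phe-free than in MASH. Its lowest library was Chow, as for Idi1, while Hmgcs1 was lowest in Phe-free. The part of the cell cycle in these levels was not tested. Cycling T-like cells, 59, 64 and 66 in number with cell cycle levels of 4699, 4780 and 4893 CPM, had 53.7, 91.1 and 55.4 CPM of Fdps. That was lower for Phe-free over MASH (0.590, interval 0.447 to 0.773) and higher for MASH over Chow (1.64, interval 1.28 to 2.12), so MASH again stood above both other libraries. With each cell given the same weight these ratios were 0.729 and 1.29.

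Red pulp macrophage-like cells had 27.9, 42.4 and 33.5 CPM of Hmgcs1 in Phe-free, MASH and Chow (Phe-free over MASH 0.658, interval 0.540 to 0.800) and 8.93, 15.7 and 10.2 CPM of Idi1 (0.571, interval 0.404 to 0.801). CD4 T-like cells had enzymes in both directions: Sc5d, the lathosterol oxidase, was higher, with 40.0 CPM in Phe-free, 23.9 in MASH and 29.8 in Chow (ratio 1.67, 1.22 to 2.30), and Dhcr7, which makes cholesterol from its last precursor, was lower, with 16.5, 24.9 and 21.9 CPM (0.662, 0.436 to 0.990). Cyp51 was higher in other B cells, with 17.5 CPM in Phe-free, 11.2 in MASH and 13.2 in Chow (1.56, 1.25 to 1.96). Stard4 was higher in cDC2-like cells (17.7, 11.4 and 12.4 CPM) and lower in cycling T-like cells (24.9, 42.2 and 28.7 CPM) and classical monocyte-like cells (8.60, 13.7 and 10.1 CPM). Of these, Sc5d was 1.09 and Dhcr7 0.865 under cell-by-cell gates, and Cyp51 was 1.27 with the clustering restarted.

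Of 37 Phe-free over MASH ratios past 1.5-fold, 9 stayed past it in every alternative run that could change a ratio. These were Abca1 in NK-like, regulatory T-like and transitional B-like cells, Abcg1 and Sqle in cDC2-like cells and Nr1h3 in classical monocyte-like cells. The others were Idi1 and Scd2 in red pulp macrophage-like cells and Scd2 in transitional B-like cells. Scd1 in red pulp macrophage-like cells was 1.22 with each cell given the same weight.

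MASH was compared with Chow in 22 classes. Of 445 pairs, 19 were higher (4.27%) and 14 lower (3.15%), against 2.87% higher and 3.89% lower over 158123 pairs of all genes. The LXR genes had 5 pairs higher and 1 lower of 70 and a median over 17 classes of 0.04, below 0 in 6. The sterol enzymes had 10 higher and 7 lower of 195 and a median of -0.01 over 18 classes. This comparison shares the MASH library with Phe-free over MASH, so a high or low MASH value enters both with opposite sign.

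The sterol enzymes had median log2 ratios of 0.37 in cycling T-like cells (7 of 7 above 0), 0.35 in germinal centre B-like cells (7 of 8), 0.25 in cDC2-like cells (6 of 7), 0.22 in cDC1-like cells (5 of 5) and 0.17 in regulatory T-like cells (11 of 14). The median of all genes was 0.11 in cDC1-like cells, so a part of the cDC1 value was shared by all genes of that class. It was 0.01 in cycling T-like, -0.01 in germinal centre B-like and -0.03 in cDC2-like cells. In early erythroid-like cells, which are also rich in cell cycle transcripts, 8 sterol enzymes were above 0 and 7 below. In germinal centre B-like cells Idi1 had 85.2 CPM in MASH (170 UMIs) and 49.8 in Chow (70), a ratio of 1.71 (1.29 to 2.29), and Sqle 35.1 in MASH and 21.3 in Chow, a ratio of 1.64 (1.06 to 2.61). The lowest values over the alternatives were 1.30 for Idi1 and 1.26 for Sqle. The share of all genes higher was 3.49% in that class, and the cell cycle list was 3166 CPM in MASH and 2475 in Chow in the germinal centre class. In cDC1-like cells, where 7.89% of all genes were higher, Fdps had 89.2 CPM in MASH and 59.4 in Chow (interval of the ratio 1.20 to 1.89) and Cyp51 31.5 in MASH and 20.9 in Chow (1.51, 1.02 to 2.26), but with clusters weighted alike the ratios were 1.02 and 1.08.

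T cells outside the cycling class also had higher single genes. Sqle had 13.6 CPM in MASH and 8.16 in Chow in CD8 T-like cells (1.66, 1.22 to 2.28), and Fdft1 18.6 in MASH and 11.8 in Chow (1.58, 1.22 to 2.06), in a class where 3.24% of all genes were higher. Scd2 in CD4 T-like cells had 30.2 CPM in MASH and 15 in Chow, with 23.6 in Phe-free, and its MASH over Chow ratio of 2.01 (1.45 to 2.80) was the farthest of the higher ones, in a class where 1.21% of all genes were higher. Elovl6 in regulatory T-like cells had 24.6 CPM in MASH and 14.3 in Chow (1.72, 1.23 to 2.40).

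In most B classes outside the germinal centre, the sterol enzymes mostly had ratios below 1, nearly all short of 1.5-fold. In follicular B-like cells 11 of 12 measured sterol enzymes were below 0 (median -0.14), in marginal zone B-like cells 13 of 15 (median -0.06) in B1-like cells 8 of 9 (median -0.11) and in other B cells 12 of 16 (median -0.11). Hsd17b7, a keto-sterol reductase, passed 1.5-fold in follicular B-like cells at 0.659, and Acat2, the cytosolic acetoacetyl-CoA thiolase, in transitional B-like cells at 0.581. Under cell-by-cell gates Hsd17b7 was at 0.786 and Acat2 turned to 1.10. Sqle passed 1.5-fold the other way in other B cells, with 6.17 CPM in MASH and 3.57 in Chow (1.73, 1.15 to 2.65), and turned to 0.511 under the gates.

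Early erythroid-like cells had Dhcr7 at 10.8 CPM in MASH and 19.9 in Chow (0.542), Hmgcs1 at 5.11 in MASH and 9.37 in Chow (0.545), Elovl6 at 11.9 in MASH and 21.5 in Chow (0.552), Scap at 12.3 in MASH and 20.3 in Chow (0.606) and Cyp51 at 13.7 in MASH and 20.8 in Chow (0.661). These 5 lower genes stand in a class where 15.4% of all genes were lower past 1.5-fold, with 653 cells in MASH and 120 in Chow and median UMIs of 8015 and 16546. Under cell-by-cell gates only Dhcr7 of the 5 stayed past 1.5-fold (0.587), with Scap at 0.683, Hmgcs1 at 0.719, Cyp51 at 0.820 and Elovl6 at 0.847. With each cell given the same weight Elovl6 was at 0.286, Dhcr7 at 0.313, Scap at 0.315 and Cyp51 at 0.348. In red pulp macrophage-like cells, where 8.35% of all genes were lower, Scd2 (0.547), Sc5d (0.598) and Insig1 (0.622) were lower and Idi1 (1.54) higher.

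Of the 5 LXR pairs higher in MASH than in Chow, 3 belonged to Abcg1. B1-like cells had 58.5 CPM in MASH and 38.8 in Chow (1.51, 1.26 to 1.81; 2.24% of all genes higher), mature neutrophil-like cells 79.5 in MASH and 49.8 in Chow (1.60, 1.31 to 1.96; 4.79% of all genes higher), and plasma-like cells 11.3 in MASH and 7.29 in Chow (1.55, 1.06 to 2.30; 2.33% of all genes higher); with each cell given the same weight the plasma ratio turned to 0.891. Phe-free levels of Abcg1 lay between the others in these classes, at 43.9, 54.0 and 9.31 CPM. Nr1h3 was higher in classical monocyte-like cells, at 15.7 CPM in MASH and 10.4 in Chow (1.51, 1.14 to 2.0), while Mylip was lower there, at 29.3 in MASH and 44.6 in Chow (0.658, 0.560 to 0.772); under cell-by-cell gates these ratios were 1.37 and 0.684.

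Of 33 MASH over Chow ratios past 1.5-fold, 7 stayed past it in every alternative run that could change a ratio. These were Scd2 in CD4 T-like and red pulp macrophage-like cells, Sqle in CD8 T-like cells and Elovl6 in regulatory T-like cells. The others were Insig1 in red pulp macrophage-like cells, Scap in NK-like cells and Dhcr7 in early erythroid-like cells.

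Phe-free and Chow, set side by side with libraries already used above, had 16 pairs higher and 24 lower of 473, against 2.38% higher and 3.77% lower over 172114 pairs of all genes. In germinal centre B-like cells Hmgcs1 had 69.5 CPM in Phe-free and 32.0 in Chow (ratio 2.17), Msmo1 49.0 in Phe-free and 24.2 in Chow (2.02) and Fdps 128 in Phe-free and 71.9 in Chow (1.79). In cDC2-like cells Msmo1 had 29.7 CPM in Phe-free and 15.2 in Chow (1.95), Fdps 74.4 in Phe-free and 40.0 in Chow (1.86) and Fasn 29.1 in Phe-free and 17.6 in Chow (1.65). The sterol enzymes had 11 pairs higher and 7 lower. Hmgcs1 was lower in cDC1-like cells, with 20.3 CPM in Phe-free and 35.9 in Chow (0.567). It was also lower in early erythroid-like cells, with 5.37 in Phe-free and 9.37 in Chow (0.574), the latter from 41 UMIs. Msmo1 was lower in red pulp macrophage-like cells, with 12.6 in Phe-free and 20.7 in Chow (0.610). The share of all genes lower was 1.71% in cDC1-like, 11.9% in early erythroid-like and 4.52% in red pulp macrophage-like cells. The share higher was 2.39% in germinal centre B-like and 3.73% in cDC2-like cells. Abca1 in NK-like cells had 16.7 CPM in Phe-free and 54.6 in Chow, a ratio of 0.307 (0.226 to 0.410).

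Stromal- and endothelial-like cells numbered 42, 73 and 49 in Phe-free, MASH and Chow. They were too few in Phe-free and in Chow for a ratio in any comparison. Their median depth was 6676.5, 7661 and 2965 UMIs. Their summed sterol enzymes were 304 CPM in Phe-free, 146 in MASH and 285 in Chow, and Abca1 was at 34.6, 110 and 116 CPM from 13, 82 and 31 UMIs.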

How the data were processed

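The deposited files were raw UMI count matrices of 3 spleen libraries, 1 per group, with no replicate; the authors made them with Cell Ranger 9.0.1 per the file headers, and Seurat 5.3.0 and the GRCm39 build are named in the submitters' processing notes. The count columns of other samples numbered 0. Barcodes with under 300 genes or over 10% mitochondrial UMIs were dropped (the lowest deposited barcode held 500 UMIs), and 304, 317 and 315 doublets (1.92%, 1.80% and 1.97%) called by Scrublet as run through scanpy were removed in Phe-free, MASH and Chow. Cells were normalized to 10000 counts, reduced to 30 components of 2000 variable genes, and clustered with Leiden at resolution 1.0 (igraph 0.11.9 and scanpy 1.11.5, with scipy 1.17.1 for the intervals, under Python 3.11.15). Markers of 29 types were listed beforehand, and a cluster took the type with the highest mean log2 ratio over its 5 leading markers. That mean had to reach 1.5, with at least 3 markers raised. A name was dropped where another type had more markers among the 10 leading genes. Unnamed or ambiguous clusters of at least 60 cells were split at resolution 0.5 and named again. B and T subsets had a looser rule: a mean log2 ratio of at least 0.5 over their 3 leading markers, with a marker among the 30 leading genes. Clusters led by pancreatic enzymes were left out.

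Raw counts were summed per class and library. A level needed 25 cells and 150000 UMIs (27 of 28 classes); a ratio needed 50 cells in both libraries. Group medians used log2 of CPM plus 10, so they understate changes of low genes. UMIs were treated as independent, and intervals cover counting error only. Code was tested on simulated data. Every gene of the 35 could be named, with full values for up to 6 per class and comparison, largest first, and up to 4 per group for the pattern over classes; other pathway genes were limited to the 3 farthest per comparison, of which some are not reported here. Members, lists and rules were chosen with earlier results of these data known. Alternatives tried were cell-by-cell gates, other clusterings, filters, minima, weights and scalings. The promoter table is on GRCm38.p6, another build than the files; its coordinates were not joined to the files.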

Additional observations from a re-analysis of the deposited data

Results flagged for a closer look

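Some genes passed 1.5-fold in opposite directions in different classes of the same comparison. The difference between classes was not tested, and these genes were picked out after their values were seen.

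For Phe-free over MASH, Hmgcs1 had a ratio of 1.61 in germinal centre B-like cells, 0.497 in cDC1-like cells and 0.658 in red pulp macrophage-like cells. Scd2 had 1.61 in red pulp macrophage-like cells, against 0.394 in transitional B-like cells, 0.574 in other B cells, 0.597 in cDC1-like cells, 0.639 in classical monocyte-like cells and 0.642 in cDC2-like cells. Stard4 had 1.56 in cDC2-like cells, 0.590 in cycling T-like cells and 0.629 in classical monocyte-like cells. Elovl6 had 1.58 in marginal zone B-like cells and 0.607 in other B cells.

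For MASH over Chow, Scd2 had 2.01 in CD4 T-like cells, 1.59 in cycling T-like cells and 1.52 in classical monocyte-like cells, against 0.547 in red pulp macrophage-like cells. Elovl6 had 1.72 in regulatory T-like cells, 0.552 in early erythroid-like cells and 0.652 in marginal zone B-like cells. Mylip had 1.86 in cDC1-like cells and 0.658 in classical monocyte-like cells. Cyp51 had 1.51 in cDC1-like cells and 0.661 in early erythroid-like cells, where 15.4% of all genes were lower.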

How the results depend on the processing

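No paired analysis was possible because each group holds 1 library. Under cell-by-cell gates the pairs higher for MASH over Chow numbered 11 instead of 19, the pairs lower for Phe-free over MASH 16 instead of 27, and the classes with Abca1 lower 2 instead of 6. Pairs higher for Phe-free over MASH, 10 as reported, numbered 6 with cells of at least 1000 UMIs, 6 with clusters weighted alike and 32 with each cell given the same weight, which also gave 33 pairs lower for MASH over Chow instead of 14. With a minimum of 50 UMIs there were 32 higher and 29 lower pairs for MASH over Chow and 23 higher and 47 lower for Phe-free over MASH, and with 20 UMIs 44, 55, 39 and 66. A lower minimum adds pairs. The gates have no cycling T class, which held 3 of the 19 pairs higher for MASH over Chow. The gate counts thus cover another set of classes, with Abca1 measured in 8 of them instead of 12. The cause of any further change was not tested. Ratios that turned were those of Elovl6 in marginal zone B-like cells for Phe-free over MASH (0.757), Sqle in other B cells (0.511) and Acat2 in transitional B-like cells (1.10) for MASH over Chow, all under gates, and Abcg1 in plasma-like cells for MASH over Chow with each cell given the same weight (0.891). Of the other recomputed ratios of single genes, 886 kept direction and side of 1.5-fold and 152 kept direction only. The 886 include 70 each from the minimum of 50 UMIs, the minimum of 20 UMIs and an offset of 1 CPM in the group medians. These settings do not enter the ratio of a single gene, so those agreements were fixed in advance. The median of the LXR genes for Phe-free over MASH stayed between -0.29 and -0.18 over all alternatives run, and Abca1 was lower in 2 to 9 classes. Leaving out barcodes shared between libraries, cells with pancreatic transcripts, or restarting the clustering were chosen after seeing the data; Abca1 was then lower in 6 of 12, 5 of 11 and 5 of 12 classes.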

Other observations

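Among 31 listed genes of the same pathways outside the 35, Apoe, an apolipoprotein that carries cholesterol from macrophages, had the farthest ratios of Phe-free over MASH and of MASH over Chow. In classical monocyte-like cells Apoe had a Phe-free over MASH ratio of 3.42 (2.94 to 4.00) from 931 and 210 UMIs, and a MASH over Chow ratio of 0.293 from 210 and 543 UMIs. Plasma-like cells gave Apoe ratios of 2.99 for Phe-free over MASH and 0.286 for MASH over Chow. Red pulp macrophage-like cells, which held 1874, 961 and 1524 CPM of Apoe in Phe-free, MASH and Chow, moved the same way, and whether free RNA from them entered the other classes was not tested. Lpl, the lipoprotein lipase, had a Phe-free over MASH ratio of 3.04 in nonclassical monocyte-like cells from 167 and 42 UMIs. For Phe-free over Chow, Lpl had a ratio of 2.78 in nonclassical monocyte-like cells and Apoe 0.434 in germinal centre B-like cells. In all, 10 of 333 pairs of these other genes were higher and 8 lower for Phe-free over MASH, and 15 of 332 higher and 19 lower for MASH over Chow.

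The 26 genes that were lower in Phe-free than in MASH in at least 6 classes, as Abca1 was, included Irf7 (15 of 18 classes), Ifi27l2a (15 of 22), Isg15 (9 of 20), Usp18 (7 of 13) and Mx1 (8 of 12), which interferon is known to induce, and the haemoglobin genes Hba-a1 (17 of 20) and Hbb-bs (15 of 22). Abca1 itself was at 6 of 12 classes. No relation between Abca1 and these genes was tested.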
